A study of Mus musculus with 8 samples.

Results

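The genes examined here code for the enzymes and the chaperone that hydroxylate, fold and cross-link collagen. They are the prolyl hydroxylase subunits P4ha1, P4ha2 and P4ha3, the lysyl hydroxylases Plod1 and Plod2, the collagen chaperone Serpinh1, and the amine oxidases Lox, Loxl1, Loxl2 and Loxl3. They were chosen by name, and 9 of the 10 have a row among the 14162 genes of the deposited table. P4ha3 has none and was not analysed here. RNA was sequenced from mouse hepatic stellate cells, which store vitamin A in the healthy liver and become matrix-producing myofibroblasts on activation. The 4 groups, with 2 libraries each (a and b), were activated cells with miR-15a, activated cells with a control microRNA, activated cells with neither, and quiescent cells. The stated aim of the series was to find genes that miR-15a is likely to target, in a study of how this microRNA turns activated cells back towards quiescence. Both C57BL/6J and SCID mice appear in the labels, with neither strain tied to a library. Age, the means of activation and the way the microRNAs were delivered are not given in the labels used here, and nothing says that libraries a and b came from separate animals or cultures. The p-values below therefore rest on the spread between these libraries alone, and that spread may be technical.

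Collagen chains are modified while they enter the endoplasmic reticulum. Prolyl hydroxylases, tetramers of P4ha catalytic subunits with the disulfide isomerase P4hb, hydroxylate the prolines that keep the triple helix stable at body temperature, and the Plod enzymes hydroxylate lysines, Plod2 mainly in the telopeptides at the chain ends. Serpinh1 (also called Hsp47) binds the folded helix on its way out of the cell, and outside it the copper-dependent Lox family oxidizes lysines and hydroxylysines so that neighbouring molecules become covalently joined. In fibrotic liver, activated stellate cells are the main source of this cross-linked collagen, and cross-links that start from hydroxylated telopeptide lysines are known as the type that accumulates in scar tissue.

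The deposited values are normalized scores and not raw read counts. Each library is built from 1 common set of 910 values, and in each the 10 highest genes share a ceiling of 125636, so genes at the ceiling cannot be told apart and the depth of the libraries is unknown. High scores lie on shared steps, and libraries of a group are often tied: among genes with a mean of at least 1000, the share tied between a and b was 10.3% with miR-15a, 7.97% with the control microRNA, 12.9% in activated cells and 10.3% in quiescent cells. Of the 9 measured genes, 4 were tied with miR-15a, 2 with the control microRNA, 6 in activated cells and 1 in quiescent cells. The activated stellate cell markers (8 of 8 measured) summed to 174345 to 227122 with miR-15a, 209430 to 262478 with the control microRNA, 265775 to 274903 in activated cells and 2202 to 2591 in quiescent cells. Acta2 was at the ceiling in library a and at 58193 in library b of both microRNA groups, a gap wider than the range of either sum, and was at the ceiling in both activated libraries. Of these 8 markers, 3 were lower in miR-15a than in control microRNA cells and 5 were not called. General stellate cell markers (11 of 12 measured) summed to 5811 to 5978 with miR-15a, 7192 to 8251 with the control microRNA, 8495 to 8895 in activated cells and 14318 to 15241 in quiescent cells, but in activated groups Pdgfrb alone gave most of this sum (7286 and 7720 in activated cells, 386 and 335 in quiescent cells). Of these 11 markers, 8 were lower and 3 higher in activated than in quiescent cells; Reln, for example, scored 14 and 22 in activated cells and 7724 and 8724 in quiescent cells. Endothelial markers (15 of 15 measured) summed to 10911 to 11024 with miR-15a, 893 to 1296 with the control microRNA, 757 to 889 in activated cells and 170834 to 241059 in quiescent cells. Macrophage markers (13 of 14 measured) summed to 13899 to 15259 with miR-15a, 2418 to 2678 with the control microRNA, 1851 to 2050 in activated cells and 151595 to 177376 in quiescent cells. Hepatocyte markers (8 of 10 measured) summed to 918 to 1355, 91 to 956, 207 to 287 and 8728 to 10578 in the same order of groups. Markers of mesothelial cells or portal fibroblasts (7 of 9 measured) summed to 59215 to 59231, 59454 to 59511, 59684 to 59746 and 387 to 398 in that order. Fbln2 alone gave most of this sum in the activated groups (58193 in each library). Of 6 tested, 5 were higher and 1 lower in activated than in quiescent cells. The 2 cholangiocyte markers measured (of 6) were also higher. No measured marker of these lists was at 0 in both libraries of any group. Markers of other liver cells thus moved with activation and with miR-15a, and in such bulk RNA fewer cells of a type and less RNA per cell cannot be told apart. Xist, the transcript that coats the inactive X chromosome of female cells, scored 3373 and 3373 with miR-15a, 3373 and 5027 in control microRNA cells, 169 and 21 in activated cells, and 8724 and 8724 in quiescent cells. Ddx3y, a gene of the Y chromosome, scored 1046 and 1006 with miR-15a, 1282 and 1268 in control microRNA cells, 2606 and 2570 in activated cells, and 44 and 40 in quiescent cells. Xist was lowest in activated cells and highest in quiescent cells, and Ddx3y the reverse, so the sex of the source animals cannot be told apart from the groups. The part of the cell type markers, Xist and Ddx3y in the results below was not tested.

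Libraries of activated cells scored higher than those of quiescent cells for most of these transcripts. In the quiescent libraries, endothelial (170834 to 241059) and macrophage (151595 to 177376) marker sums exceeded that of general stellate cell markers (14318 to 15241). In activated cells they were 757 to 889 and 1851 to 2050. The part of other liver cells in this contrast was not tested. Of the 9 measured genes, 8 were higher and 1, Plod1, was lower, where 45.4% of all 13150 genes tested were called higher and 34.1% lower in limma (adjusted p under 0.05). The median difference of the 9 genes was 3.96 on the log2(score + 5) scale, beside 0.21 over all genes. With median-ratio scaling of the libraries, the median over all genes moved to -0.06 and the split of all calls from 5968 higher and 4483 lower to 4749 higher and 5418 lower, while the 9 genes still gave 8 higher and 1 lower. In all 9 the scores of activated and quiescent libraries did not overlap, which was also so for 89.96% of all genes tested. Lox ranked first of the 13150 genes for its increase, Loxl1 27th, Plod2 84th and Loxl3 160th. Lox was at the shared ceiling in both activated libraries, as was Acta2. The order of Lox and Acta2 thus rests on their low quiescent scores (22 and 22 for Lox, 43 and 51 for Acta2).

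**Figure D1:**
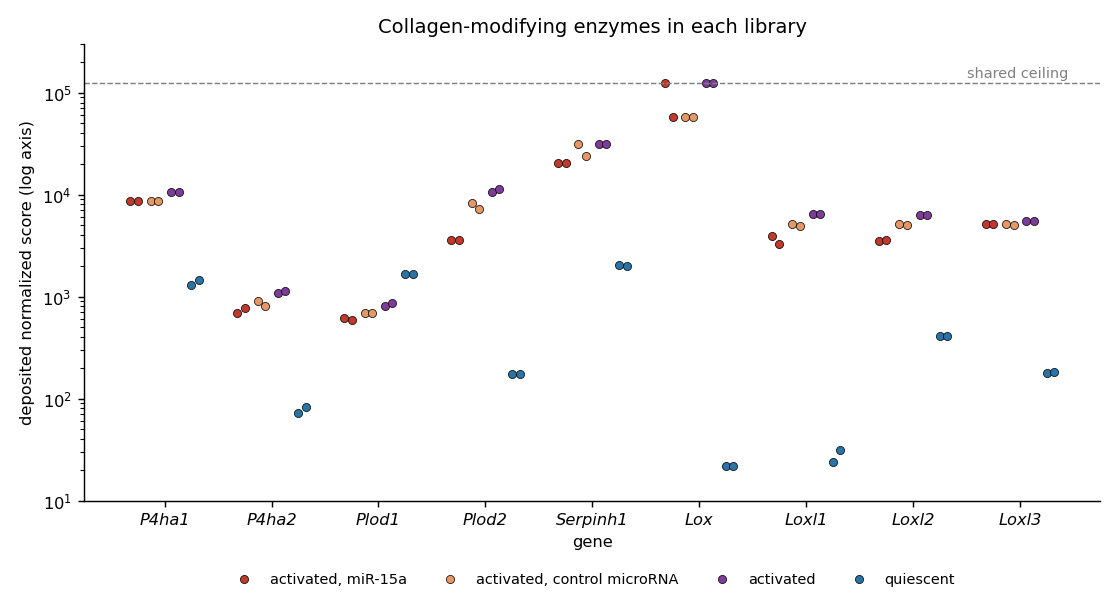
Deposited normalized score of each of the 9 measured genes (log axis, no unit) in every library, coloured by group, with the shared ceiling of 125636 as a dashed line. In 8 genes all activated libraries stand above the quiescent ones, Plod1 is the exception, and Lox reaches the ceiling in 3 of the 6 activated libraries.

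Activated cells with miR-15a had less of several of these transcripts than activated cells with the control microRNA, by far the most for Plod2. Of the 9 genes, 5 were lower (Plod2, Loxl2, Loxl1, Serpinh1 and Plod1), none was higher, also at an unadjusted p under 0.05, and 4 did not pass the test, where 14.4% of all genes tested were called higher and 15.4% lower in limma. Their median difference was -0.22, beside -0.07 over all genes, so Plod2 at -1.10 stood apart from a group that otherwise moved by small amounts. With median-ratio scaling the split of all calls went from 1897 higher and 2029 lower to 2311 higher and 1585 lower, and 4 of the 9 genes were lower. Leaving out either miR-15a library or either control library gave 3 calls among the 9 genes, and without miR-15a library b these included Lox as higher. Endothelial and macrophage markers were higher in the same comparison, 13 of 15 and 13 of 13 of those measured.

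Against activated cells without any microRNA, the miR-15a libraries were lower in 7 of the 9 genes and higher in none, where 16.8% of all genes tested were called higher and 21.6% lower in limma. The median difference was -0.59, beside -0.10 over all genes. With median-ratio scaling the median over all genes was 0.04, the split of all calls went from 2204 higher and 2841 lower to 3111 higher and 1620 lower, and 6 of the 9 genes were lower. This comparison and the previous one share the miR-15a libraries, so they are not independent. The control microRNA itself went with lower scores: 6 of the 9 genes were lower and none higher than in activated cells, where 7.18% of all genes tested were called higher and 6.61% lower in limma. These 6 were Plod2, Loxl2, P4ha1, P4ha2, Plod1 and Lox, and the calls lay close to the threshold: leaving out 1 library gave fewer than 2 calls without either activated library (Plod2 at an adjusted p of 0.0225 without library a and 0.0524 without library b), 2 without control library b, and 3 or 4 without any of the other 5. For this comparison, median-ratio scaling changed the split of all calls from 944 higher and 869 lower to 1370 higher and 493 lower and kept 2 of the 6 members, Plod2 and Loxl2. Against quiescent cells, the miR-15a libraries were still higher in 8 of the 9 genes and lower in Plod1, where 37.1% of all genes tested were called higher and 34.4% lower. The median there was 3.35, beside 0.04 over all genes.

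**Figure D2:**
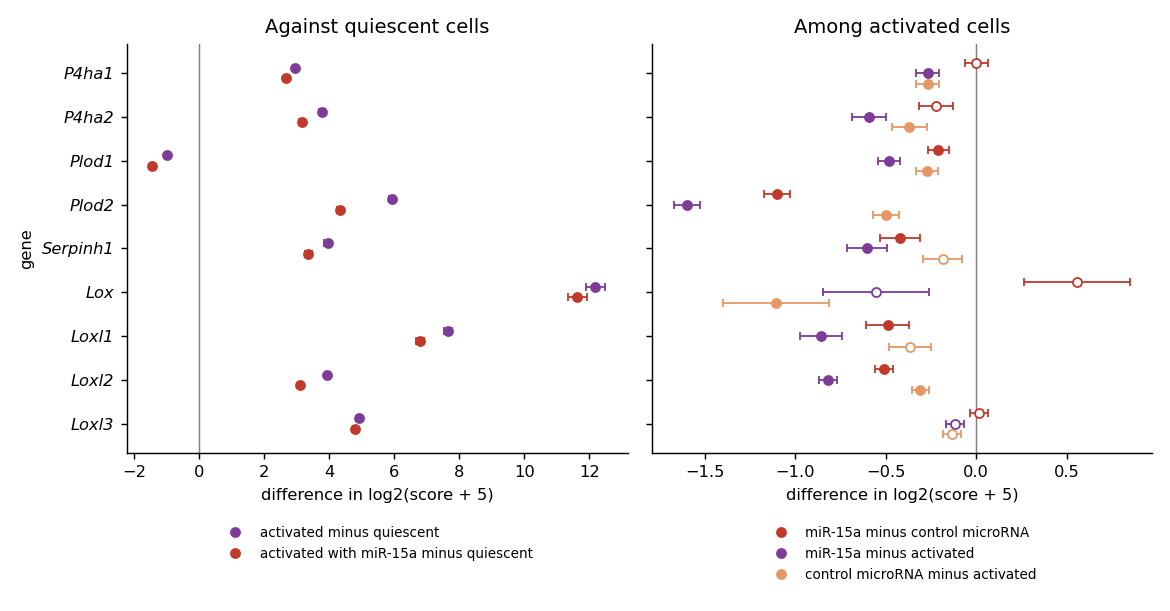
Difference in log2(score + 5) for each measured gene, with its standard error from limma (2 libraries per group), against quiescent cells on the left and among activated cells on the right. Filled points passed an adjusted p of 0.05; Plod2 is lowest in both comparisons of miR-15a, at -1.10 and -1.60, and the Lox intervals are the widest.

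P4ha1, a catalytic prolyl hydroxylase subunit, lies on chromosome 10 at 59323296 to 59373304 of GRCm38 (the assembly behind mm10), on the plus strand. It scored 8728 in all 4 libraries with a microRNA, miR-15a and control alike, 10507 and 10507 in activated cells, and 1294 and 1451 in quiescent cells. The 4 microRNA libraries were thus tied at 1 step of the shared scale, just below the activated libraries and far above the quiescent ones. Activated cells averaged 7.66 times the score of quiescent cells, a log2 difference of 2.93 ± 0.06 (SE, limma adjusted p = 1.48e-08, n = 2 each). Between miR-15a and the control microRNA the difference was 0.00 ± 0.06 (limma adjusted p = 1), since all 4 libraries held the same step. Against activated cells the miR-15a libraries were lower by a log2 difference of -0.27 ± 0.06 (limma adjusted p = 0.0152), a call lost without any of the 4 libraries compared (adjusted p 0.0511 to 0.0696), with a constant variance prior (0.0513) and with median-ratio scaling (0.22).

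P4ha2, the other catalytic subunit, lies on chromosome 11 at 54100095 to 54131665 on the plus strand. It scored 694 and 771 with miR-15a, 896 and 816 in control microRNA cells, 1076 and 1138 in activated cells, and 72 and 82 in quiescent cells. No pair of groups overlapped, and the order from activated down to quiescent cells ran through the control microRNA and then miR-15a. Such separation was common: miR-15a and control microRNA libraries did not overlap in 65.9% of all genes tested. The share was 71.4% between miR-15a and activated cells and 59.5% between the control microRNA and activated cells. Against quiescent cells it was 89.96% for activated cells and 83.7% for miR-15a. Activated cells were higher than quiescent cells by a log2 difference of 3.76 ± 0.09 (limma adjusted p = 2.76e-08). Between miR-15a and the control microRNA the difference of -0.22 ± 0.09 did not pass the test (limma adjusted p = 0.118), while that between miR-15a and activated cells, -0.59 ± 0.09, did (limma adjusted p = 0.00296).

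Promoter windows are shown for P4ha1 and Serpinh1, which were higher on activation, and for Plod1, which was lower, because P4ha1, P4ha2 and Plod2 are known targets of the hypoxia-inducible factors. Each window is the 250 bases before the gene's start in RefSeq (GRCm38.p6), written along the gene's own strand. The table used held windows for Plod1, P4ha1, P4ha2 and Serpinh1 among the measured genes; that of P4ha2 falls within the gene's GENCODE span and is not printed. Capitals mark the letters ACGTG or GCGTG, the core of the hypoxia response element, on either strand (CACGT and CACGC on the other).
P4ha1, chr10:59323046-59323295, plus strand: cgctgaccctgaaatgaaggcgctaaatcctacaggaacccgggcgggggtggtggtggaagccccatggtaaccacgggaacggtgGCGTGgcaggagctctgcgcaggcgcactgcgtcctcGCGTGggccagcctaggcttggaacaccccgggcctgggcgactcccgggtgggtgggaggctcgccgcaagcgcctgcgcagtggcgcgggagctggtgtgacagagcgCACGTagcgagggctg
Serpinh1, chr7:99353240-99353489, minus strand: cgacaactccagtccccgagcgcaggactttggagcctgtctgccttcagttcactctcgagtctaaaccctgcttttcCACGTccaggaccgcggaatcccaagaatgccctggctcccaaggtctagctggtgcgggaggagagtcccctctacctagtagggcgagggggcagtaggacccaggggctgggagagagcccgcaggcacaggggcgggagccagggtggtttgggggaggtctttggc
Plod1, chr4:147936777-147937026, minus strand: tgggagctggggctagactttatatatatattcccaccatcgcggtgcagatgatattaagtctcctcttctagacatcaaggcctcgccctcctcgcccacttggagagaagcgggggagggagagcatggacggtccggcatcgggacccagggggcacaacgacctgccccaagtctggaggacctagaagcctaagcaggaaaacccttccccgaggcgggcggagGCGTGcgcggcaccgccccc
P4ha1 held 1 ACGTG and 2 GCGTG, P4ha2 likewise 1 and 2, Serpinh1 1 ACGTG only and Plod1 1 GCGTG only. Of 10539 windows of the same length for genes in the deposited table, 21.1% held ACGTG, 42.5% held GCGTG and 53.6% held either, so a match is common and says nothing by itself about binding.

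The lysyl hydroxylases moved in opposite directions on activation. Plod2, on chromosome 9 at 92542223 to 92608428 (plus strand), scored 3602 and 3602 with miR-15a, 8202 and 7286 in control microRNA cells, 10504 and 11352 in activated cells, and 175 and 176 in quiescent cells. No groups overlapped, as was common over all genes tested. The miR-15a libraries lay far below the control libraries but far above the quiescent ones. Activated cells averaged 62.3 times the quiescent score, a log2 difference of 5.92 ± 0.07 (limma adjusted p = 1.73e-09). With miR-15a the score averaged 3602 ± 0 and with the control microRNA 7744 ± 648 (SD, n = 2 each), a ratio of 0.465 and a log2 difference of -1.10 ± 0.07 (limma adjusted p = 4.75e-05). This was the 175th lowest difference of the 13150 genes tested. Against activated cells the difference was -1.60 ± 0.07 (limma adjusted p = 6.26e-06), the 71st lowest of all genes. Both calls were kept in all 18 alternative settings, and against quiescent cells the miR-15a libraries were still 20.5 times as high. Of the exon bases of Plod2, 6.42% lie opposite Gm38391, a transcript of undetermined status on the other strand, whose reads cannot be told apart from those of Plod2 where the counting ignored strand.

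Plod1, on chromosome 4 at 147909753 to 147936767 (minus strand), is the lysyl hydroxylase that acts mainly on lysines within the helix. It scored 613 and 588 with miR-15a, 696 and 694 in control microRNA cells, 816 and 866 in activated cells, and 1677 and 1647 in quiescent cells. It was the only one of the 9 genes with its highest score in quiescent cells. Its groups did not overlap, as was common over all genes tested. The log2 difference between activated and quiescent cells was -0.98 ± 0.06 (limma adjusted p = 2.66e-06). With miR-15a it was lower still, by -0.21 ± 0.06 against the control microRNA (limma adjusted p = 0.0355) and by -0.48 ± 0.06 against activated cells (limma adjusted p = 0.000914). The call against the control microRNA was lost when any of the 8 libraries was left out (adjusted p 0.0519 to 0.132) and with median-ratio scaling (0.103). That call was also lost with a constant variance prior (limma adjusted p = 0.0908), with only those groups in the fit (0.092) and with a replicate block (0.054). The control microRNA libraries were themselves lower than activated cells by -0.27 ± 0.06 (limma adjusted p = 0.0289), a call lost with median-ratio scaling (0.0732). In both microRNA groups Plod1 thus lay farther from the quiescent level than in activated cells, not closer to it.

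Ratios and orders between genes assume that scores of different genes share a scale. That is not known, since the step that made the scores is not recorded and high steps come in close pairs such as 58200 and 58193. The exon length joins the exons of all annotated transcripts of a gene (6765 bases for Plod1, 6239 for P4ha2), so it can exceed that of any single transcript. The size of a ratio depends on this length, while its change between groups does not. Under the assumption of a shared scale, the balance of the lysyl hydroxylases differed widely between groups. Per kilobase of exon, the ratio of Plod2 to Plod1 scores was 7.37 and 7.69 with miR-15a, 14.8 and 13.2 in control microRNA cells, 16.2 and 16.4 in activated cells, and 0.131 and 0.134 in quiescent cells. Plod2 exceeded Plod1 in every activated library and was below it in both quiescent ones, and the miR-15a ratios lay below those of both other activated groups. The ratio of P4ha1 to P4ha2 was 19.1 and 17.2 with miR-15a, 14.8 and 16.2 in control microRNA cells, 14.8 and 14.0 in activated cells, and 27.3 and 26.8 in quiescent cells. P4ha1 thus scored higher per kilobase in every library, and its excess was greatest in quiescent cells. The ratio of Loxl3 to Loxl2 was 1.71 and 1.67 with miR-15a, 1.17 and 1.17 in control microRNA cells, 1.04 and 1.04 in activated cells, and 0.507 and 0.523 in quiescent cells, with no overlap between groups. The ratio of Loxl1 to Loxl2 was 1.82 and 1.48 with miR-15a, 1.64 and 1.60 in control microRNA cells, 1.68 and 1.68 in activated cells, and 0.096 and 0.123 in quiescent cells. Here the miR-15a libraries overlapped both other activated groups, and only quiescent cells stood apart. With 2 libraries per group no exact permutation test of a ratio can pass the threshold, so the ratios are a description.

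**Figure D3:**
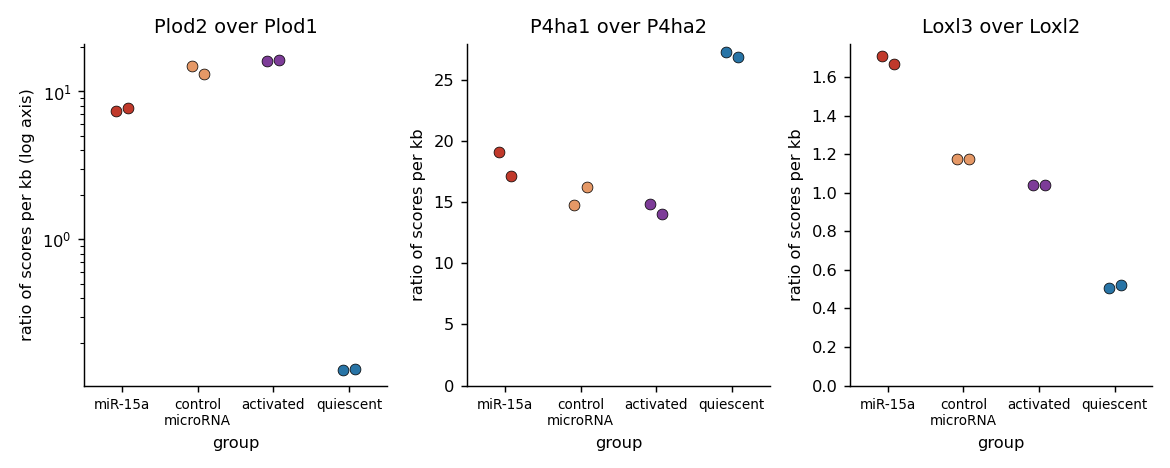
Ratio of scores per kilobase of exon between related enzymes in each library, by group (Plod2 over Plod1 on a log axis, the others on linear axes from 0). Plod2 over Plod1 lies at 7.37 and 7.69 with miR-15a, between 13.2 and 16.4 in the other activated libraries and at 0.131 and 0.134 in quiescent cells; Loxl3 over Loxl2 is highest with miR-15a.

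Serpinh1, the collagen chaperone, lies on chromosome 7 at 99345376 to 99353239 on the minus strand. It scored 20500 and 20500 with miR-15a, 31224 and 24099 in control microRNA cells, 31224 and 31224 in activated cells, and 2037 and 1976 in quiescent cells. The miR-15a libraries lay below all other activated libraries, and 1 control library was tied with the activated ones. Activated cells were higher than quiescent cells by a log2 difference of 3.96 ± 0.11 (limma adjusted p = 4.44e-08), 15.6 times the score. The difference between miR-15a and the control microRNA was -0.42 ± 0.11 (limma adjusted p = 0.0266), and it did not pass without miR-15a library a (adjusted p = 0.092), without library b (0.0961), with a constant variance prior (0.0568) or with only those groups in the fit (0.108). Against activated cells it was -0.61 ± 0.11 (limma adjusted p = 0.00518), which passed in every setting except a required change of 1 on the log2 scale.

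Lox, the founding member of the lysyl oxidases, on chromosome 18 at 52516067 to 52529867 (minus strand), showed the greatest contrast and the least resolved one. It scored 125636 and 58200 with miR-15a, 58200 and 58200 in control microRNA cells, 125636 and 125636 in activated cells, and 22 and 22 in quiescent cells. The higher value is the shared ceiling and the lower the next step, held by 4 genes, so the miR-15a libraries spanned both steps and overlapped the other activated groups. Among activated cells Lox was always within the 14 highest genes and its libraries differed by at most a single step. Activated cells exceeded quiescent cells by a log2 difference of 12.18 ± 0.29 (limma adjusted p = 2.29e-08). Because of the ceiling this difference may be understated. The difference between miR-15a and the control microRNA was 0.56 ± 0.29 (limma adjusted p = 0.197) and that between miR-15a and activated cells -0.56 ± 0.29 (limma adjusted p = 0.175). Both rested on 1 library: without miR-15a library b, Lox was called higher than with the control microRNA (1.11, adjusted p = 0.000215) and did not differ from activated cells, and without library a it was called lower than in activated cells (-1.11, adjusted p = 0.000123). Lox therefore gave no stable direction with miR-15a.

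Loxl1, which is known for cross-linking elastin, lies on chromosome 9 at 58287738 to 58313186 on the minus strand. It scored 3895 and 3264 with miR-15a, 5124 and 4900 in control microRNA cells, 6464 and 6464 in activated cells, and 24 and 31 in quiescent cells. No groups overlapped, as was common over all genes tested. The log2 difference between activated and quiescent cells was 7.65 ± 0.12 (limma adjusted p = 3.92e-09), 235 times the score, the second widest of the 9 genes after Lox. It was lower with miR-15a than with the control microRNA by -0.49 ± 0.12 (limma adjusted p = 0.0188) and than in activated cells by -0.86 ± 0.12 (limma adjusted p = 0.00143). The call against the control microRNA was lost without miR-15a library b (adjusted p = 0.103) and without either control library (0.0722 and 0.062).

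Loxl2, which also acts on collagen IV of basement membranes, lies on chromosome 14 at 69609068 to 69695834 on the plus strand. It scored 3514 and 3604 with miR-15a, 5124 and 5029 in control microRNA cells, 6290 and 6290 in activated cells, and 410 and 413 in quiescent cells. No groups overlapped, as was common over all genes tested, and the gaps between groups were wide relative to the spread within them. Activated cells were higher than quiescent cells by 3.92 ± 0.05 on the log2 scale (limma adjusted p = 1.95e-09). With miR-15a the score averaged 3559 ± 63.6 and with the control microRNA 5077 ± 67.2 (SD, n = 2 each), a log2 difference of -0.51 ± 0.05 (limma adjusted p = 0.00032). Leaving out any library kept this call. Against activated cells the difference was -0.82 ± 0.05 (limma adjusted p = 2.16e-05). Of the exon bases of Loxl2, 5.57% lie opposite Gm27177, an antisense gene on the other strand. Its reads cannot be told apart from those of Loxl2 where the counting ignored strand.

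Loxl3, a further member of the same branch as Loxl2, lies on chromosome 6 at 83034173 to 83052562 on the plus strand. It scored 5123 and 5123 with miR-15a, 5123 and 5027 in control microRNA cells, 5561 and 5561 in activated cells, and 177 and 184 in quiescent cells. Libraries of the miR-15a and control groups overlapped, and both lay slightly below the activated libraries. The log2 difference between activated and quiescent cells was 4.91 ± 0.05 (limma adjusted p = 1.02e-09). Neither the difference between miR-15a and the control microRNA (0.01 ± 0.05, limma adjusted p = 0.86) nor that between miR-15a and activated cells (-0.12 ± 0.05, limma adjusted p = 0.101) passed the test, and the second turned to 0.03 with median-ratio scaling. Of the exon bases of Loxl3, 11.6% also belong to Htra2 on the opposite strand, which scored between 238 and 350 in all 8 libraries. Whether the counting used strand is not given in the sources used here.

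Under the same assumption, levels of different genes were set side by side per kilobase of exon. In activated cells the order was Lox (26295), Serpinh1 (12781), P4ha1 (2554), Plod2 (2027), Loxl1 (1961), Loxl3 (1208), Loxl2 (1164), P4ha2 (177) and Plod1 (124). Of these neighbours, Plod2 and Loxl1 did not differ beyond their spread (2027 ± 111 and 1961 ± 0, SD, n = 2 each). In quiescent cells the order was Serpinh1 (821), P4ha1 (334), Plod1 (246), Loxl2 (76.1), Loxl3 (39.2), Plod2 (32.5), P4ha2 (12.3), Loxl1 (8.34) and Lox (4.60). By this measure Lox stood first in activated cells and last in quiescent cells, and Plod1 last in activated cells but behind only Serpinh1 and P4ha1 in quiescent cells. These orders depend on the joined exon lengths. Before division by length, Plod1 (1677 and 1647) scored above P4ha1 (1294 and 1451) in quiescent cells. With miR-15a the order at the top was the same as in activated cells, Lox, Serpinh1 and P4ha1, but Plod2 (668 ± 0) stood in the sixth place, beside Loxl2 (658 ± 11.8), from which it did not differ beyond the spread.

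The profile over the 8 libraries that lay closest to the median profile of the 9 genes, each centred on its own mean on the log2 scale, was that of Fam101b, at a distance of 0.29, among 8856 genes with a mean of at least 100. It was followed by Lbh (0.31), Ikbip (0.35), Col16a1 (0.36) and Rhobtb3 (0.38). Among the 9 genes themselves, Serpinh1 (0.17) and Loxl2 (0.34) were nearest to that median and Lox (9.76) and Plod1 (6.10) farthest. Fam101b, for example, scored 522 and 504 with miR-15a, 660 and 559 in control microRNA cells, 796 and 804 in activated cells, and 44 and 46 in quiescent cells.

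**Figure D4:**
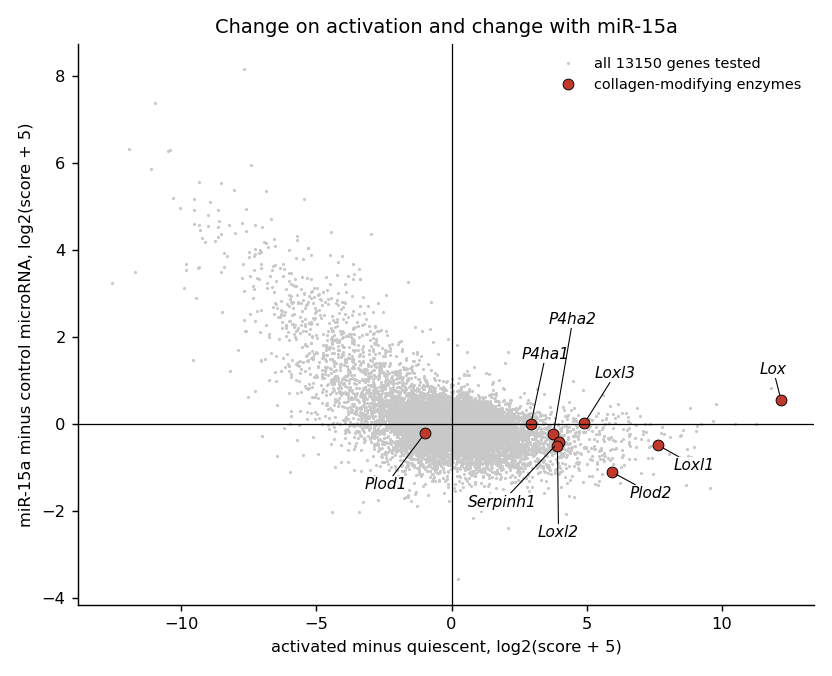
Difference between activated and quiescent cells (horizontal) against the difference between miR-15a and the control microRNA (vertical), both in log2(score + 5), for all 13150 genes tested (grey) and the 9 measured genes (red); the axes use different libraries. Plod2 lies lowest of the 9 at 5.92 and -1.10, Lox farthest right at 12.18, and Plod1 alone left of 0.

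The substrates and partners of these enzymes were examined through lists of related genes. Of the collagen chains, 12 of 14 tested were higher in activated than in quiescent cells, 1 was lower and 1 did not pass, with a median of 4.24. Over all genes tested, 45.4% were higher and 34.1% lower, with a median of 0.21. With miR-15a, 10 of the 14 chains were lower than with the control microRNA (9 with median-ratio scaling), none was higher and 4 did not pass. Their median was -0.76, beside -0.07 over all genes, of which 15.4% were lower and 14.4% higher. Against activated cells, 6 of the 14 chains were lower with miR-15a (5 with median-ratio scaling), none was higher and 8 did not pass. The median there was -0.23, beside -0.10 over all genes, of which 21.6% were lower and 16.8% higher. Col1a2, a chain of type I collagen, sat at the ceiling of 125636 in all 6 activated libraries, so no difference could appear there. Col12a1, a collagen that binds the surface of fibrils, scored 8202 and 7720 with miR-15a, 20500 and 24099 in control microRNA cells, 20500 and 24099 in activated cells, and 20 and 30 in quiescent cells. Its difference was 9.55 between activated and quiescent cells (limma adjusted p = 5.05e-09) and -1.48 between miR-15a and the control microRNA (limma adjusted p = 0.000645). Col5a2, of type V collagen, was higher by 6.59 in activated than in quiescent cells (limma adjusted p = 9.1e-09). Col18a1, a basement membrane collagen, scored 663 and 712 with miR-15a, against 1744 and 2063 in control microRNA cells, a difference of -1.46 (limma adjusted p = 7.71e-05). Col5a3, a minor chain of fibril-forming type V collagen, scored 615 and 594 with miR-15a, against 1308 and 1515 in control microRNA cells, a difference of -1.21 (limma adjusted p = 7.1e-05). Col6a2 was lower with miR-15a than with the control microRNA by -1.36 (limma adjusted p = 0.000214) but differed from activated cells by only -0.03 (limma adjusted p = 0.869), since its score was higher with the control microRNA than in either other activated group. Col1a1, Col5a1, Col6a1 and Col4a2 were likewise called lower than with the control microRNA (-0.77, -0.42, -0.75 and -0.37). None of these passed against activated cells (-0.07, -0.23, 0.10 and 0.00).

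Of the 14 tested partners of the hydroxylases, 12 were higher in activated than in quiescent cells, 1 was lower and 1 did not pass. Over all genes tested, 45.4% were higher and 34.1% lower. The median of the partners was 1.59, beside 0.21 over all genes. The smallest p-values were those of Fkbp10, a prolyl isomerase that works with Plod2 on telopeptide lysines (5.96, limma adjusted p = 6.52e-09), Lepre1, the prolyl 3-hydroxylase now named P3h1 (3.66, limma adjusted p = 3.21e-08), and Fkbp14, another isomerase of the endoplasmic reticulum (2.84, limma adjusted p = 8.17e-08). With miR-15a against the control microRNA, 2 of the 14 passed, Fkbp10 and Lepre1, both lower, where 15.4% of all genes were lower and 14.4% higher. The median of the 14 was -0.09, beside -0.07 over all genes, so the list as a whole moved little more than all genes did. Fkbp7 came next (-0.33, limma adjusted p = 0.0717). Fkbp10 scored 3446 and 3602 with miR-15a, against 4776 and 4368 in control microRNA cells, a difference of -0.37 (limma adjusted p = 0.0346). Lepre1 scored 930 and 1019 with miR-15a, against 1222 and 1260 in control microRNA cells, a difference of -0.35 (limma adjusted p = 0.0305). Neither passed with median-ratio scaling (adjusted p 0.0537 and 0.0653). P4hb, the partner of the P4ha subunits, scored 9824 and 9824 with miR-15a, against 10507 and 9200 in control microRNA cells, and the groups overlapped.

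Chaperones and export factors gave 14 higher, 4 lower and none not called of 18 tested between activated and quiescent cells. Over all genes tested, 45.4% were higher and 34.1% lower. Sec23a, a coat protein of the vesicles that leave the endoplasmic reticulum, was higher by 3.13 (limma adjusted p = 1.08e-08). With miR-15a against the control microRNA, 7 of the 18 were lower, 1 was higher and 10 did not pass. Of all genes tested, 15.4% were lower and 14.4% higher there. Hsp90b1, an endoplasmic reticulum chaperone, scored 12562 and 12562 with miR-15a, against 24099 and 24099 in control microRNA cells, a difference of -0.94 (limma adjusted p = 6.92e-05). Its score was higher with the control microRNA than in activated cells (0.37, limma adjusted p = 0.0145), and against activated cells miR-15a differed by -0.57 (0.000628). Mia3 (TANGO1), which loads procollagen into transport vesicles, scored 1472 and 1486 with miR-15a, against 2076 and 2036 in control microRNA cells, a difference of -0.47 (limma adjusted p = 0.000573). Canx (calnexin), a lectin chaperone, was lower by -0.37 (limma adjusted p = 0.00205).

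Among 15 tested genes of procollagen processing and fibril assembly, 11 were higher, 3 lower and 1 not called between activated and quiescent cells. Over all genes tested, 45.4% were higher and 34.1% lower. With miR-15a against the control microRNA, 11 of the 15 were lower (9 with median-ratio scaling), 1 was higher and 3 did not pass. Of all genes tested, 15.4% were lower and 14.4% higher there. Adamts2, the protease that removes the amino-terminal propeptide, scored 2570 and 2385 with miR-15a, against 5027 and 4899 in control microRNA cells (lower, limma adjusted p = 5.95e-05). Dcn, a proteoglycan that coats collagen fibrils, was lower by -0.81 (limma adjusted p = 0.000448). Its score was higher with the control microRNA than in activated cells (0.42, limma adjusted p = 0.0193). Against activated cells miR-15a differed by -0.39 (0.00956), a call lost with median-ratio scaling (0.0506). Tll1, a protease that removes carboxy-terminal propeptides, was lower with miR-15a than with the control microRNA (-0.72, limma adjusted p = 0.000541) but higher than in activated cells (0.32, limma adjusted p = 0.0139). Fn1, whose matrix guides collagen assembly, was at the ceiling in all 6 activated libraries. Loxl4, the remaining member of the Lox family, was lower with miR-15a by -0.34 (limma adjusted p = 0.0323), a call lost with median-ratio scaling (0.0571).

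**Figure D5:**
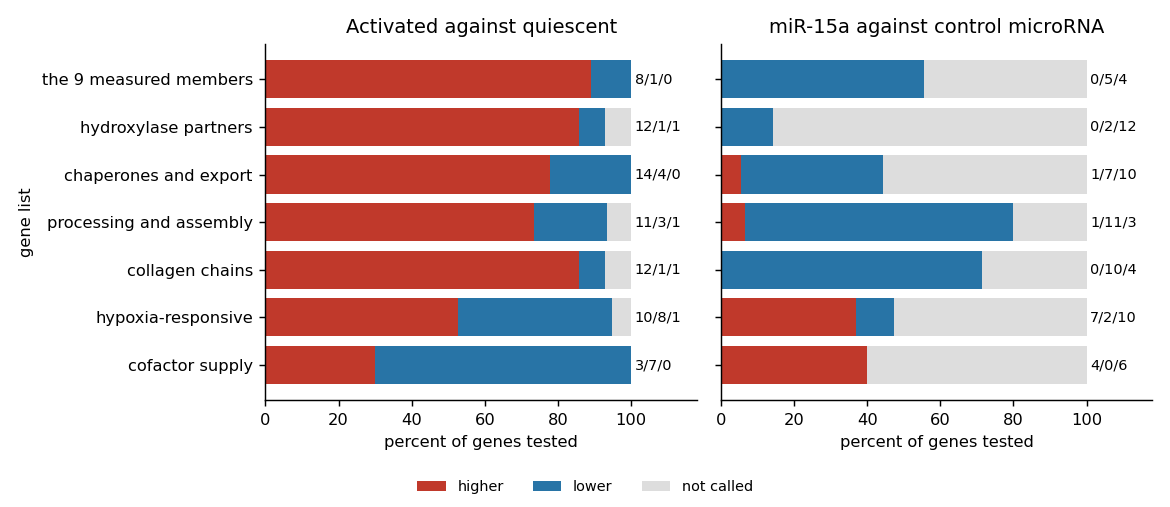
Percent of the tested genes of each list called higher, lower or not called in limma, for activated against quiescent cells (left) and miR-15a against the control microRNA (right); the figures beside the bars are the counts in that order. The 9 measured genes give 8, 1 and 0 on the left and 0, 5 and 4 on the right; the collagen chains give 12, 1 and 1, and 0, 10 and 4.

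Of 19 tested genes known to respond to low oxygen, 10 were higher, 8 lower and 1 not called between activated and quiescent cells, where 45.4% of all genes were higher and 34.1% lower. With median-ratio scaling it was 8 higher and 8 lower. Between miR-15a and the control microRNA, 7 were higher, 2 lower and 10 not called, where 14.4% of all genes were higher and 15.4% lower. Vegfa, the endothelial growth factor, was higher in activated than in quiescent cells (3.80, limma adjusted p = 4.98e-08) and lower with miR-15a than with the control microRNA (-0.46, limma adjusted p = 0.0181). Hif1a, the oxygen-regulated subunit of the factor itself, scored 4265 and 4368 with miR-15a, 2224 and 2302 in control microRNA cells, 2360 and 2605 in activated cells, and 4776 and 4446 in quiescent cells. It was higher with miR-15a than with the control microRNA by 0.93 (limma adjusted p = 7.95e-05). Endothelial and macrophage markers were also higher in these miR-15a libraries. Whether any gene of this list bears on the change of Plod2 was not tested. Adm, a peptide hormone that endothelial cells also make, was lower in activated than in quiescent cells by -3.13 (limma adjusted p = 9.34e-08). It was higher with miR-15a than with the control microRNA by 2.07 (limma adjusted p = 1.33e-05), in the libraries where endothelial markers were also higher. Ndrg1 was higher with miR-15a than with the control microRNA by 0.74 (limma adjusted p = 0.000755). The control microRNA was itself lower than activated cells (-0.51, limma adjusted p = 0.0111), and miR-15a against activated cells did not pass (0.24, 0.0595). Ero1l, an oxidase that renews disulfide isomerases, was higher in activated than in quiescent cells by 1.88 (limma adjusted p = 2.03e-07).

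Of 10 tested genes that supply the cofactors of these enzymes (ascorbate, iron, copper and 2-oxoglutarate), 3 were higher and 7 lower in activated than in quiescent cells. Over all genes tested, 45.4% were higher and 34.1% lower. The ascorbate transporter Slc23a2 was lower by -2.21 (limma adjusted p = 8.63e-08) and the copper pump Atp7a, which loads Lox enzymes with copper, by -1.49 (limma adjusted p = 3.35e-06). With miR-15a against the control microRNA, 4 of the 10 were higher and none lower, where 14.4% of all genes were higher and 15.4% lower. Tfrc, the transferrin receptor that takes up iron, scored 2700 and 2640 with miR-15a, against 1386 and 1260 in control microRNA cells, a difference of 1.01 (limma adjusted p = 6.81e-05). Idh1, which makes 2-oxoglutarate, and Atox1, which hands copper to Atp7a, were each higher by 0.31 (limma adjusted p = 0.00616 and 0.0167). Idh2, the mitochondrial counterpart of Idh1, was higher in activated than in quiescent cells by 1.18 (limma adjusted p = 3.94e-06).

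Because the series aims at targets of miR-15a, the 3′ UTRs were searched for letters that pair with the seed of the microRNA (bases 2 to 8, in capitals in the first sequence). The mature miRNA (RefSeq, chr14:61632075-61632096 of GRCm38.p6, minus strand) is shown with the 30 bases around each match in a longest annotated 3′ UTR of the genes (GENCODE M21, GRCm38, all on the plus strand), where capitals mark the match TGCTGCT.
mmu-miR-15a-5p: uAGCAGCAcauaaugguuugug
Loxl2, chr14:69694011-69694040, exon 14 of 14: cttacccttctcTGCTGCTctaaacctgta
P4ha1, chr10:59371479-59371508, exon 15 of 15: cagacgccagtgTGCTGCTcttccgatgtg
P4ha3, chr7:100319538-100319567, exon 13 of 13: ggggctgatttcTGCTGCTgccccaggagg
Of the 9 measured genes, Loxl2 and P4ha1 held a match (22.2%), beside 23.9% of the 12533 genes of the table with an annotated 3′ UTR, so the enzymes carried the seed match about as often as other genes. The match of Loxl2 begins 904 bases after the stop codon in a 3′ UTR of 2715 bases, and that of P4ha1 417 bases after it in one of 2230 bases. No match was followed by A. Of these genes, Loxl2 was lower with miR-15a than with the control microRNA (-0.51) and P4ha1 was tied (0.00). Plod2, with the strongest decrease, held no match, nor did Loxl1, Serpinh1 and Plod1. The match is a description of the letters and does not show binding.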

How the data were processed

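RNA was measured in 8 libraries, 2 for each of 4 groups taken from the sample labels. Per the labels' protocols, TRIzol RNA went into TruSeq libraries read as single ends of 80 nt on a NextSeq, and the submitters' processing notes name STAR, Subread, featureCounts and mm10 without versions. The table deposited by the authors holds a normalized score per gene, and the step that made it is not given in the sources used here. Totals lie between 10193036 and 10234768, 0.409% apart, and without a known depth no counting interval can be given.

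Limma 3.58.1 (R 4.3.3) was run on log2(score + 5) for the 13150 genes with at least 10 in at least 2 libraries, with 4 group means over all 8 libraries, 4 degrees of freedom left for the residuals, a prior on the variance that depends on the mean, and Benjamini-Hochberg adjustment over all 13150 genes. Differences on this scale understate the change of low genes. Tied scores gave some genes a spread of 0 between libraries, which limma offset, so small standard errors may understate the error. The design had also allowed for raw counts, which the values are not. The procedure was tested on simulated data.

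The members and gene lists were chosen with earlier results of these data known. Named list genes were the 3 of each list with the smallest p per comparison. Outside that rule lie P4hb, Loxl4, Col1a1, Col5a1, Col6a1, Col4a2, Htra2, Xist and Ddx3y, and the cell type markers Acta2, Pdgfrb, Reln and Fbln2. These were named after their values were seen. Of the list genes, 5 were matched by older symbols. Exon lengths, 3′ UTRs and positions come from GENCODE M21 (GRCm38). The exon length of a gene joins the exons of all its annotated transcripts, coding or not.

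Alternatives were pseudocounts of 1 and 20, no filter and a filter at 50, median-ratio scaling, a constant variance prior, only the groups compared in the fit, a replicate block, a required change of 1 on the log2 scale, leaving out genes at the ceiling, leaving out each library in turn, and other definitions of the seed match.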

Additional observations from a re-analysis of the deposited data

How the results depend on the processing

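All 9 measured genes kept their calls against quiescent cells, for activated cells and for miR-15a, in every setting except a required change of 1 on the log2 scale, which removes Plod1 in activated cells, and the removal of genes at the ceiling, which takes Lox out of the test. Between miR-15a and the control microRNA, Plod2 was called in all 18 settings. The number of members called there was 5, against 3 with a constant variance prior, 3 with only the 2 groups in the fit and 1 with the fold limit. Between miR-15a and activated cells it was 7, and 1 with the fold limit. Between the control microRNA and activated cells it was 6, against 2 with median-ratio scaling, 2 with a constant prior and 1 with the fold limit. Loxl3 between miR-15a and activated cells turned to 0.0263 with median-ratio scaling (adjusted p = 0.73).

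Over all genes the fold limit left 6019 calls between activated and quiescent cells, 898 between miR-15a and the control microRNA, 1178 between miR-15a and activated cells, 322 between the control microRNA and activated cells and 5215 between miR-15a and quiescent cells. With only the 2 groups in the fit, 2296 genes were called between miR-15a and the control microRNA and 436 between the control microRNA and activated cells. The cause of these shifts was not tested beyond their construction, since the fold limit removes small changes and the smaller fit has 2 residual degrees of freedom.

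Leaving out each library in turn, with the lone library assumed to vary like the others, gave 9470 to 10482 calls between activated and quiescent cells (9 members in each run), 2381 to 3691 between miR-15a and the control microRNA (3 to 4 members), 2655 to 5139 between miR-15a and activated cells (6 to 7 members), 503 to 1683 between the control microRNA and activated cells (0 to 4 members) and 8393 to 9456 between miR-15a and quiescent cells (9 members in each run). The labels give the letters a and b no shared source, and differences between a and b correlated across genes at -0.0666 to 0.0872 between groups, so the letters were not taken to pair libraries. With them as a replicate block, the members called were 9, 4, 7, 5 and 9 in the same order, and the block changed the calls of Plod1 between miR-15a and the control microRNA (adjusted p = 0.054) and of P4ha2 between the control microRNA and activated cells (0.0535). The seed match was followed by A in 0 members, and bases 2 to 7 followed by A also matched 0. The unknown depth and the shared ceiling limit what Lox can show.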
